A study of Homo sapiens with 6 samples.

Results

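The genes described here make sterols and fatty acids. The list holds 30 members, chosen by name: the enzymes that lead from acetyl-CoA to cholesterol, the regulators that control them, and the enzymes that build, elongate and desaturate fatty acids. Of the 30, 26 had a probe set annotated to that gene alone, among 19775 such genes on the array. A member was read from its brightest probe set by the mean of the 6 arrays, and 25 members reached the filter on dim signals, of 12151 genes that did. MVD, the decarboxylase that forms isopentenyl diphosphate, stayed below the filter with signals of 5.39 to 17.9 on the 6 arrays. CYP51A1 and FADS1 had only probe sets that also carry another gene's symbol, and are given apart. FDFT1 and ACSL3 were not analysed here.

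The arrays measured RNA of HSC-3, a human tongue squamous cell carcinoma line, in 2 groups of 3 arrays. One group is labelled as overexpressing trypsin-2, a serine protease, and is titled TAT-2. The other is labelled as carrying a control vector with no trypsin-2 expression. Both were cultured for 48 h in the same medium with fetal calf serum, sodium pyruvate and hydrocortisone. Whether a group is 1 clone, which promoter drives the introduced gene and whether replicates were separate cultures are details not given in the sources used here. All p-values therefore measure only the spread between these arrays, which may be technical.

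The brighter probe set of PRSS2, the trypsin-2 gene, had signals of 20.4, 13.8 and 14.6 (labelled overexpressing, in replicate order) and of 19.6, 80.8 and 83.2 (control), which goes against the labels. Arrays are therefore named by their label, and every direction between the groups rests on it. Squamous markers were bright: KRT5, KRT14, CDH1, LAMB3 and ITGB4, the 5 of 8 listed with a probe set of their own, summed to 13531 to 18753 on the arrays labelled overexpressing and to 11455 to 19581 on control arrays. The 4 adipocyte markers summed to at most 28.4 in both groups, with no member reaching the filter. Sums were at most 153 for 7 fibroblast, 141 for 6 leukocyte and 55.8 for 4 endothelial markers, of which 3, 3 and 1 reached the filter. The arrays of replicate 1 lay away from all others on principal component 1, which held 45.6% of the variance.

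Sterol synthesis begins when HMGCS1 joins acetyl units and runs through mevalonate, isopentenyl diphosphate and squalene to lanosterol and then cholesterol. Transcription of most of these enzymes is driven by the SREBP proteins, made from SREBF1 and SREBF2. When membranes hold enough sterol, INSIG proteins keep the SREBPs in the endoplasmic reticulum, and target genes, INSIG1 among them, go down together. SREBP-1 also drives fatty acid genes such as FASN and SCD. SREBPs bind sterol regulatory elements and usually work with the factor NF-Y, which binds the letters CCAAT.

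Promoter windows, 250 bases before to 50 after each start, were taken from RefSeq on GRCh38.p14 and were there for 26 of the 30 members. The letters CCAAT, on either strand, were present in 24 of 37 member windows (64.9%), against 34.6% of all 35116 windows. At gene level 20 of the 26 members had a match. The sterol element letters TCACNCCAC, on either strand, were found in 1 member window, that of SREBF2, and in 1.13% of all windows. GGGCGG, the GC box bound by Sp1, was in 86.5% of member windows against 45% of all, and the E-box letters CACGTG in 10.8% against 7.26%. The members were listed for known functions, so these shares describe the list, and a match is no proof of a bound site. Only these letters in these windows were searched, so a lack of a match does not show that an element is absent. Stretches before the start are shown for SCD, INSIG1, STARD4, MSMO1, IDI1 and FDPS, which were lower on the replicate 1 arrays, as described further on. LSS, which was higher there, and SREBF2 are shown too. TM7SF2, SC5D and ELOVL6 were also lower there but are not shown, and ELOVL6 had no CCAAT match. Capitals mark CCAAT, its reverse complement ATTGG and the sterol element letters.
SCD (chr10:100346992-100347063, + strand): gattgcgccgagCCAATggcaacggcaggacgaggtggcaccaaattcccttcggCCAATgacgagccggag
INSIG1 (chr7:155297696-155297724, + strand): cgccggcctcccATTGGttgcggccgcct
STARD4 (chr5:111512649-111512708, - strand): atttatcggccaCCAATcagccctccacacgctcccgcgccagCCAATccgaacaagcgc
MSMO1 (chr4:165327472-165327651, + strand): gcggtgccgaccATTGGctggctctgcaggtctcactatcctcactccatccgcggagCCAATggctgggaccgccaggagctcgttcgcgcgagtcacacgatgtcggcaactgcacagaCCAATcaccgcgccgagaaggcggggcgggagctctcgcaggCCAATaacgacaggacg
IDI1 (chr10:1048957-1049030, - strand): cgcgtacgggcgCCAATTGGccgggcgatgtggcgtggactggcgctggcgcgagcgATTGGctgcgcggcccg
FDPS (chr1:155308678-155308831, + strand): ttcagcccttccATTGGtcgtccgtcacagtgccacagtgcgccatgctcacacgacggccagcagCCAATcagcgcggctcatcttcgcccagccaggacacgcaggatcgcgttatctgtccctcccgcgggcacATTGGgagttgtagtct
LSS (chr21:46228908-46228936, - strand): cgcggcgctctgATTGGttgcgtgggcgt
SREBF2 (chr22:41832960-41833015, + strand): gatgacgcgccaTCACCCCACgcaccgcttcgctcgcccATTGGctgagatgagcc
MSMO1 held 4 CCAAT matches in its stretch, IDI1 and FDPS held 3 each, and IDI1 had a pair that overlap as CCAATTGG. SREBF2 had the sterol element letters and 1 CCAAT match side by side.

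Between the groups, SCD was the member with the largest difference. SCD, stearoyl-CoA desaturase, puts the double bond into saturated fatty acids to make oleic and palmitoleic acid. Its brightest probe set had signals of 149, 1273 and 699.6 on the arrays labelled overexpressing, in replicate order, and of 119, 313 and 207 on the control arrays. Replicates 2 and 3 labelled overexpressing lay above every control array, whereas replicate 1 labelled overexpressing lay below both control replicates 2 and 3, so the groups overlapped. The means were 707 ± 562 and 213 ± 97.3 (SD, n = 3 each), a 2.48-fold difference on the scale of log2(signal + 16), which is used for all fold changes and understates those of dim genes. Matched by replicate number, the log2 difference was 0.29, 1.97 and 1.68 in replicates 1, 2 and 3.

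SCD rose on the arrays labelled overexpressing once the fit had a term for the replicates. Limma gave a log2 fold change of 1.31 ± 0.67 (SE) with group as the only term, with an adjusted p of 0.716. The block left an SE of 0.23 and an adjusted p of 0.00808 in limma, and replicate 1 as a batch factor gave 0.0262. Without the intensity trend of the variance the blocked limma call was lost (adjusted p = 0.202), as it was without the filter on dim signals (adjusted p = 0.101). The fold change rested on replicates 2 and 3: it was 2.16 without the overexpressing replicate 1 array and 0.68 without the overexpressing replicate 2 array.

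The 3 other SCD probe sets, all above the filter, were also higher on the arrays labelled overexpressing. The second gave 124, 347 and 208 against 101, 114 and 72.8, with no overlap between the groups and a log2 fold change of 1.03 ± 0.32 (SE). Its limma adjusted p was 0.424 with group alone, 0.0102 with the block and 0.0361 with replicate 1 as a batch factor. The dimmer probe sets were at 0.87 and 0.57 and passed in neither fit (limma adjusted p = 0.0651 and 0.235 with the block). All 4 probe sets had the smallest difference in replicate 1, where the log2 values ran from -0.21 to 0.29. In replicate 2 they ran from 1.44 to 1.97.

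**Figure D1:**
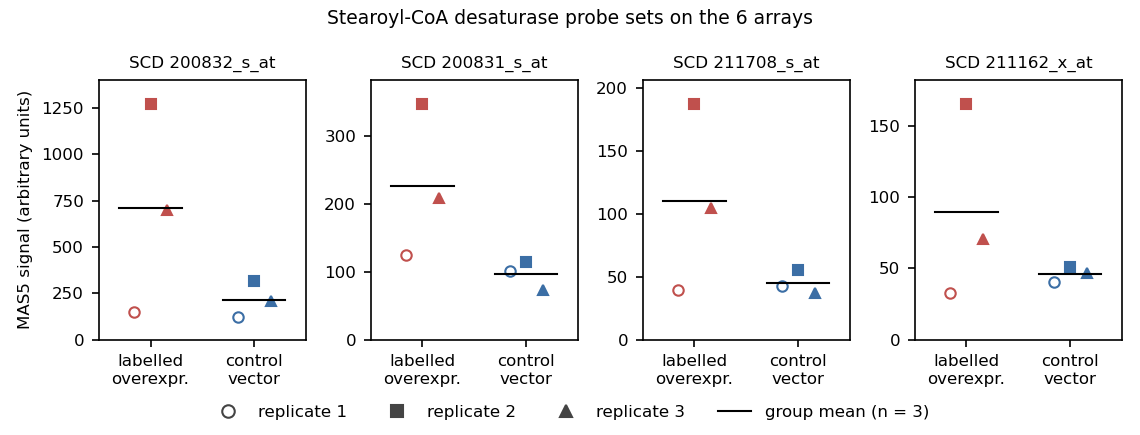
Signal of each of the 4 SCD probe sets (vertical axis, arbitrary units of linear MAS5 signal) on each array, with open circles, squares and triangles for replicates 1, 2 and 3 and a line at each group mean. In each probe set replicates 2 and 3 labelled overexpressing sit above all 3 control arrays, and replicate 1 is the lowest of its group, with 149 on the brightest probe set against 1273 and 699.6.

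No other member passed the test. Without the block limma called 0 of the 25 tested members, where 0.0576% of all genes were called, and 1 (ACACA) had an unadjusted p under 0.05, where 9.4% of all genes did. With the block it called 1 of 25, SCD, where 6.97% of all genes were called and 3.5% were called higher. At an unadjusted p under 0.05 the block gave 5 of 25, where 22.3% of all genes passed. The middle log2 fold change of the members was 0.07, against -0.0023 over all genes tested, with 18 members higher and 7 lower. Apart from SCD, the members ran from -0.27 (TM7SF2) to 0.41 (STARD4). The groups did not overlap in 3 of 25 members, 2 higher (ACACA and EBP) and 1 lower (ACAT2), where 15.7% of all genes did not overlap, 7.86% higher and 7.82% lower.

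ACACA, acetyl-CoA carboxylase, which makes malonyl-CoA for fatty acid chains, had the lowest adjusted p of the members with group as the only term, and the second lowest, after SCD, with the block. It gave 286, 316 and 278 on the arrays labelled overexpressing and 206, 259 and 236 on control arrays. All 3 arrays labelled overexpressing were above all 3 control arrays. The log2 fold change was 0.31 ± 0.12 (SE), with a limma adjusted p of 0.583, and 0.0524 with the block. Its dimmer probe set had the opposite sign, at -0.08.

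FASN, fatty acid synthase, gave 193, 119 and 132 on the arrays labelled overexpressing against 166, 104 and 90.2 on control arrays. It was higher by label in each replicate number, although the groups overlapped because both replicate 1 arrays were the highest. The log2 fold change was 0.29 ± 0.24 (SE; limma adjusted p = 0.895, and 0.166 with the block). ACLY, which supplies cytosolic acetyl-CoA, was at 0.05 ± 0.10, and ELOVL6, which lengthens palmitate, at 0.08 ± 0.15. FADS2, a desaturase of polyunsaturated fatty acids, was dim, with 23.0, 26.9 and 29.1 against 54.9, 24.8 and 24.2. Only control replicate 1 stood out, and the log2 fold change was -0.21 ± 0.24 (limma adjusted p = 0.937). LPIN1, a phosphatidate phosphatase, was at 0.03 ± 0.13.

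Among the regulators, SREBF1 gave 46.2, 73.5 and 59.6 on the arrays labelled overexpressing and 48.8, 58.7 and 55.9 on control arrays. SREBF2 gave 63.6, 69.1 and 55.2 against 68.7, 58.1 and 73.3. In both genes the groups overlapped, with log2 fold changes of 0.09 ± 0.17 and -0.07 ± 0.15 (SE) and limma adjusted p of 0.969 and 0.975. The 95% intervals ran from -0.30 to 0.48 for SREBF1 and from -0.41 to 0.27 for SREBF2. Array probe sets of SREBF1 were not split here by its isoforms.

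INSIG1, which retains the SREBPs and is itself one of their targets, gave 31.5, 189 and 138 on the arrays labelled overexpressing and 47.1, 124 and 117 on control arrays. The replicate 1 array was the lowest of its group in both. The group difference was 0.12 ± 0.53 (log2, SE; limma adjusted p = 0.988). STARD4, a carrier of cholesterol between membranes, gave 66.8, 287 and 231 against 76.4, 162 and 143. In replicates 2 and 3 STARD4 was higher by label, at log2 0.77 and 0.63, and in replicate 1 it was at -0.16. Its fitted difference was 0.41 ± 0.46 (limma adjusted p = 0.937, and 0.167 with the block). With both replicate 1 arrays left out it was 0.70 and passed, with a limma adjusted p of 0.0458.

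In the steps from acetyl-CoA to squalene, 6 members were tested, and their log2 fold changes ran from -0.21 to 0.13. HMGCS1 gave 89.7, 154 and 133 on the arrays labelled overexpressing and 120.5, 110 and 144 on control arrays. The control values of HMGCS1 lay within the range of the other group, at -0.01 ± 0.19 (log2, SE; limma adjusted p = 0.997, 95% interval from -0.46 to 0.43). ACAT2, the cytosolic thiolase that makes acetoacetyl-CoA, had the lowest value of the 6. The mevalonate and phosphomevalonate kinases MVK and PMVK were at -0.08 and 0.13, IDI1, the isomerase of isopentenyl diphosphate, at 0.03, and FDPS, which makes farnesyl diphosphate, at 0.08.

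In the steps from squalene to cholesterol, 8 members were tested, and the log2 fold changes ran from -0.27 to 0.18, with 6 higher and 2 lower and 0 called in either limma fit. Limma gave 0 of the 8 an unadjusted p under 0.05 in either fit. Of all genes 9.4% passed at that level without the block and 22.3% with it. SQLE and LSS, which oxidise and close the ring of squalene, were at 0.07 and 0.06. MSMO1, the sterol methyl oxidase, was at 0.18 ± 0.37 (SE). NSDHL, SC5D, DHCR7 and EBP, which finish the sterol rings and side groups, ran from -0.03 to 0.15. TM7SF2, a sterol reductase, gave 3.55, 36.7 and 29.0 against 12.3, 32.7 and 42.9, with both replicate 1 signals below the filter level of 15.2. Its log2 fold change was -0.27 ± 0.40 (limma adjusted p = 0.956).

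Of the members with a shared symbol, the brighter probe set annotated to both LRRD1 and CYP51A1 gave 237, 291 and 333 against 229.99, 274 and 285 (log2 0.11 ± 0.15). The 3 probe sets annotated to both MIR1908 and FADS1 were at 0.19, 0.17 and 0.03. Limma called none of these 5 probe sets without or with the block. Of the 25 tested members, 15 had a further tested probe set, and in 10 of these at least 1 had the opposite sign from the brightest.

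**Figure D2:**
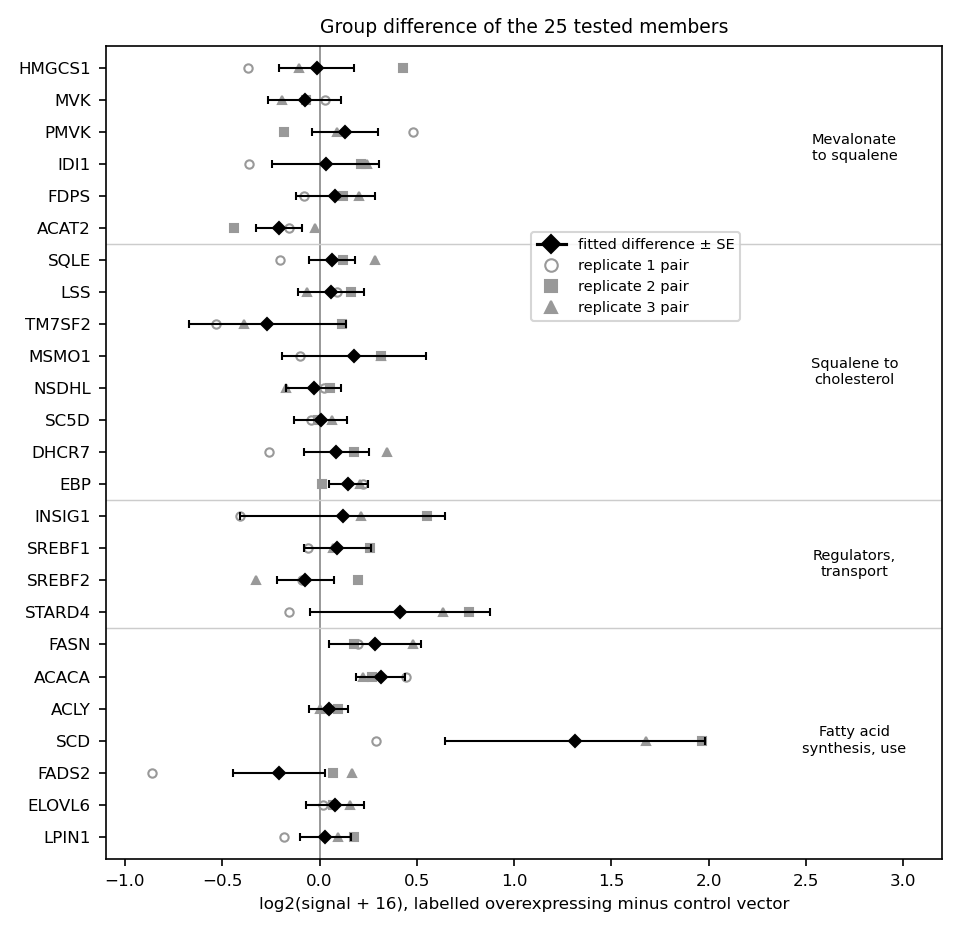
Difference between the arrays labelled overexpressing and the control vector arrays (horizontal axis, log2(signal + 16)) for each of the 25 tested members, grouped by role. Diamonds with bars give the fitted difference ± SE without the block, and grey symbols the differences of arrays with the same replicate number. SCD lies apart at 1.31, and the other 24 members lie between -0.27 and 0.41.

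More members were called by replicate number than by label. In the fit with group and replicate 1 as terms, a test chosen after the values had been seen, limma called 9 of 25 members lower and 3 higher on the replicate 1 arrays than on replicates 2 and 3. Over all genes 25.1% were called, 11.9% lower and 13.2% higher. The median shift of the members was -0.26, against 0.01 over all genes. In 13 of 25 members both replicate 1 arrays were below the other 4, and in 3 above them. Of all genes 40.6% had no such overlap, 19.1% with replicate 1 below.

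The 9 lower members span sterol and fatty acid enzymes and the sterol feedback genes. By its brightest probe set SCD was 3.41-fold lower, from a mean of 623 on replicates 2 and 3 to 134 on replicate 1. The 3 other SCD probe sets had log2 shifts of -0.45, -0.79 and -0.78, none called (limma adjusted p = 0.246, 0.0837 and 0.0828). The first of these was 0.13 higher on replicate 1 within the control group. INSIG1 was 2.84-fold lower, from 142 to 39.3, with a log2 shift of -1.51 ± 0.18 (SE; limma adjusted p = 0.000291). STARD4 was 2.45-fold lower, from 206 to 71.6, with a log2 shift of -1.30 ± 0.17 (limma adjusted p = 0.00050). MSMO1 was 2.12-fold lower: it gave 407 and 437 on the replicate 1 arrays and 813 to 1019 on the other 4 (limma adjusted p = 4.2e-05). TM7SF2, at 3.55 and 12.3 on the replicate 1 arrays, was below the filter level there and reached the filter only through the other 4 arrays, so it had to differ. Without it 8 of 24 members were called lower, and 12 of 24 had both replicate 1 arrays below the other 4.

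IDI1 gave 295 and 384 on the replicate 1 arrays and 520.0 to 627 on the other 4, a log2 shift of -0.74 ± 0.11. FDPS gave 633 and 670 against 887 to 1023, a log2 shift of -0.55 ± 0.07. ELOVL6 and SC5D shifted less, by a log2 of -0.36 and -0.28. Further probe sets of IDI1 shifted by -0.76 (called lower), 0.39 (called higher) and 0.40 (not called). Those of ELOVL6 shifted by -0.18 and 0.10, neither called, and those of INSIG1 by -1.25 and -0.80, both called lower. Read from the brightest probe set, all 9 members were lower on replicate 1 within each group. They were selected by their shift on these same arrays, so a fall within both groups was largely fixed by that choice. In all 9 the shift was larger on the arrays labelled overexpressing, and the share of all genes with this was not computed. For INSIG1 the shift was -1.90 on the arrays labelled overexpressing and -1.11 on control arrays, and for SCD -2.54 and -1.01. The test of that difference, an interaction of group and replicate 1, called 0 members in limma (smallest adjusted p = 0.9997), where 0% of all genes were called. At an unadjusted p under 0.05 it gave 8 of 25 members in limma, where 4.06% of all genes passed. These were SCD, INSIG1, STARD4, MSMO1 and IDI1, and also SQLE, DHCR7 and FADS2, which were not among the 9. FDPS, TM7SF2, SC5D and ELOVL6 of the 9 did not pass.

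FASN, MVK and LSS moved the other way and were called higher on the replicate 1 arrays. FASN gave 193 and 166 on these against 90.2 to 132 on the other 4, a log2 shift of 0.63 ± 0.11 (limma adjusted p = 0.00256). MVK and LSS were at 0.44 and 0.38. Further tested probe sets of MVK shifted by 0.37 and 0.18 and that of LSS by 0.02, none called. FASN had no further tested probe set. SREBF2 was at 0.04 ± 0.15 and SREBF1 at -0.29 ± 0.15, neither called. SQLE at -0.09, ACAT2 at -0.04 and EBP at -0.03 had little shift by their brightest probe sets. Some members not called by the brightest probe set had a dimmer one that was called. It was higher in ACLY (0.63) and lower in NSDHL (-0.57), ACACA (-0.63) and HMGCS1 (-0.49). CCAAT was present in the windows of 8 of the 9 lower members, of both higher members with a window and of 8 of 11 other tested members with one, so all 3 sets held windows with these letters.

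Other measures moved with replicate 1 as well. A 28S ribosomal RNA probe set gave 530 to 682 on the replicate 1 arrays and 2030 to 2537 on the others. For ACTB, signal at the 3' end over that at the 5' end had a log2 of 0.21 to 0.25 on replicate 1 and of 0.46 to 0.59 elsewhere. The same measure of GAPDH ran the other way, with 0.032 to 0.090 on replicate 1 and -0.0050 to 0.021 elsewhere. Their part in the shift of the sterol genes was not tested, and the labels do not say what a replicate number stands for.

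**Figure D3:**
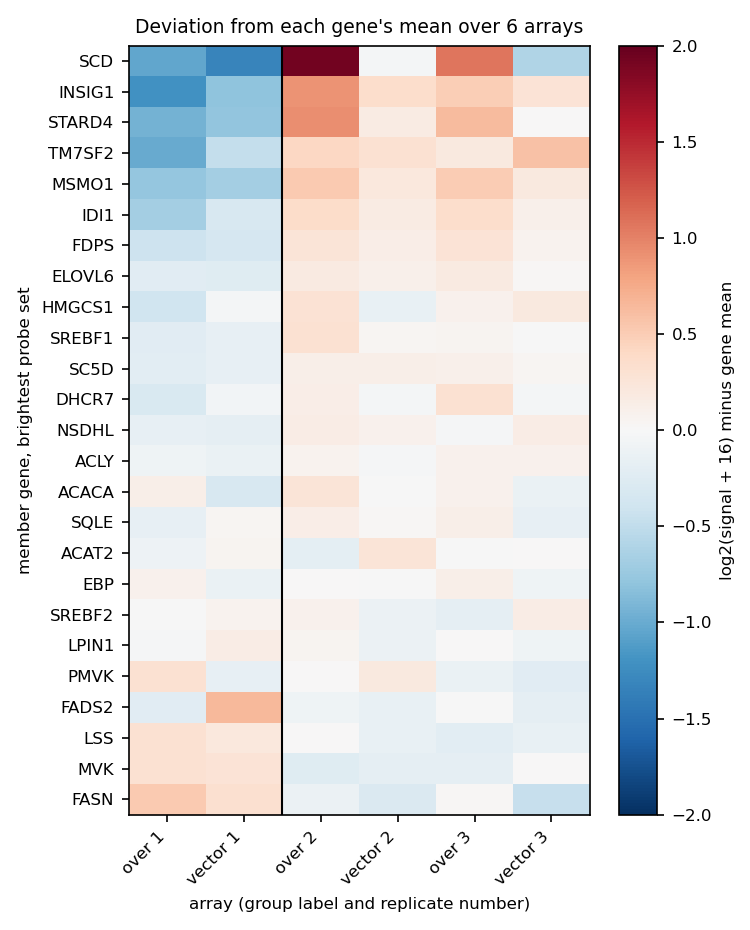
Deviation of each tested member from its own mean over the 6 arrays (colour, log2(signal + 16)), with members ordered by their replicate 1 shift and arrays ordered by replicate number. The upper rows (SCD, INSIG1, STARD4, TM7SF2, MSMO1, IDI1 and FDPS) are low on both replicate 1 arrays and higher on the other 4, and FASN, MVK and LSS in the lowest rows run the other way.

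**Figure D4:**
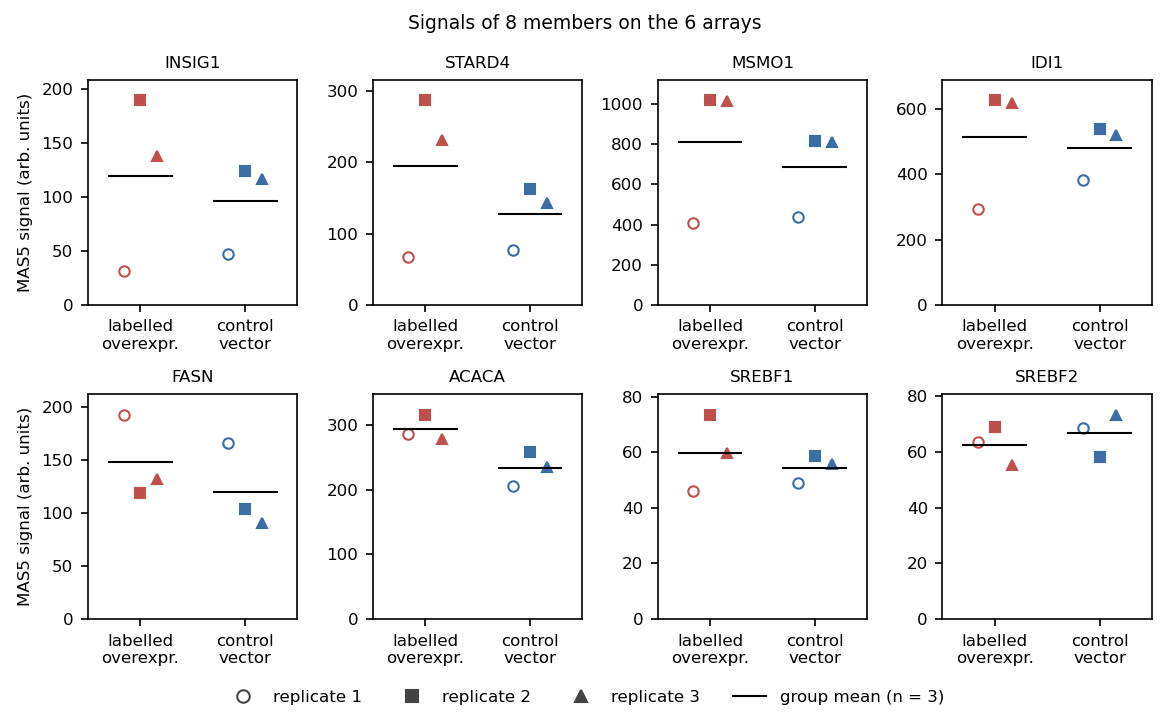
Linear MAS5 signal (arbitrary units, vertical axes from 0) of 8 members on each array, with symbols for the replicate number and a line at each group mean. In INSIG1, STARD4, MSMO1 and IDI1 the replicate 1 array is the lowest of its group, in FASN it is the highest, and in ACACA alone all 3 arrays labelled overexpressing are above all control arrays.

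Within replicate numbers the members leaned by label differently. In the replicate 1 pair 10 of 25 members were higher on the array labelled overexpressing, with a median log2 difference of -0.08. In the replicate 2 pair 21 were higher, with a median of 0.16, and in the replicate 3 pair 18, also with a median of 0.16. In 6 members all 3 differences were above 0, and in 1, ACAT2, all 3 were below it. Shares over all genes were not computed for these counts, which therefore cannot be read as particular to the members.

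Genes next to the pathway were read from 5 further lists, of 7, 10, 11, 22 and 16 tested genes in the order given here. The fit without the block called 0 members of each, where it called 0.0576% of all genes. In the same order 1, 1, 2, 3 and 1 had an unadjusted limma p under 0.05 without the block, where 9.4% of all genes did. With the block limma called 6.97% of all genes, 3.5% higher, the shares to read the blocked counts of these lists against. All 10 calls in these lists were lost with the block and no intensity trend (limma adjusted p = 0.131 to 0.269), and 5 of the 10 held with the block and no filter (GGPS1, LIPA, SLC25A1, ACSL5 and ACADVL). With the block, 1 of 7 other sterol pathway genes rose: GGPS1, which makes geranylgeranyl diphosphate, from 266 ± 40.8 to 357 ± 61.2 (SD, n = 3 each), or 0.40 ± 0.08 on the log2 scale (SE with the block; limma adjusted p = 0.0111). Of 10 genes that sense sterols or process SREBPs, 0 were called with the block, while 4 had an unadjusted limma p under 0.05, where 22.3% of all genes did. The nearest were the ubiquitin ligase gene MARCHF6 at 0.23 and ERLIN1, of the endoplasmic reticulum membrane, at 0.22 (limma adjusted p = 0.0785 and 0.116 with the block). MBTPS2 and INSIG2, also among the 4, were lower, at -0.22 and -0.26 (limma adjusted p = 0.152 and 0.233 with the block). On the replicate 1 arrays the sterol list had 3 of 7 members called lower and 1 higher (POR), and the sensing list 1 of 10 lower and 2 higher (SCAP and RNF139), where 11.9% of all genes were lower and 13.2% higher.

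Of 11 genes of sterol transport and LXR response, 1 rose and 1 fell with the block, where 6.97% of all genes were called. LIPA, the lysosomal acid lipase that frees cholesterol from its esters, rose from 799.7 ± 158 to 1139 ± 184 (log2 0.51 ± 0.07, SE; limma adjusted p = 0.0016 with the block). NPC1, which exports cholesterol from lysosomes, fell from 260.1 ± 16.8 to 200.2 ± 22.0 (log2 -0.36 ± 0.09; limma adjusted p = 0.0367 with the block). The NPC1 call was lost with replicate 1 as a batch factor (limma adjusted p = 0.071). The groups of both genes did not overlap. Each opposed the other in direction, and the list's median was -0.05. On the replicate 1 arrays 3 of the 11 were called lower and 1 higher, against 11.9% and 13.2% of all genes, with a median shift of 0.06.

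Of 22 other fatty acid synthesis genes, 2 rose and 1 fell with the block, where 6.97% of all genes were called. ACSL5, an acyl-CoA synthetase, rose from 160.0 ± 22.3 to 263 ± 51.7 (log2 0.66 ± 0.09, SE; limma adjusted p = 0.00307 with the block). SLC25A1, the citrate carrier that feeds cytosolic acetyl-CoA, rose by a log2 of 0.55 ± 0.09, and ELOVL5, an elongase of polyunsaturated fatty acids, fell by 0.30 on the log2 scale (limma adjusted p = 0.00508 and 0.0295 with the block). The list's median was 0.0046. On the replicate 1 arrays 4 of the 22 were called lower and 4 higher, against 11.9% and 13.2% of all genes, with a median shift of 0.08.

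Of 16 tested genes of fatty acid oxidation, 4 fell and 0 rose with the block, where 6.97% of all genes were called in either direction. CPT1A, which admits fatty acids to mitochondria, was at -0.41 ± 0.09 (log2, SE with the block) and ACADVL, the very long chain dehydrogenase, at -0.40 ± 0.07. ETFA, an electron carrier of the pathway, and ECI2, an enoyl-CoA isomerase, were each at -0.27 ± 0.06. Limma adjusted p ran from 0.00715 (ACADVL) to 0.0333 (ECI2) with the block. With replicate 1 as a batch factor the CPT1A call was lost (limma adjusted p = 0.0972), which left 3. The list's median was 0.07, with 9 members higher and 7 lower. Only ETFA of the 4 had groups that did not overlap. On the replicate 1 arrays 7 of the 16 were called lower and 2 higher, against 11.9% and 13.2% of all genes, and the part of that shift in these falls was not tested.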

How the data were processed

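Values are the authors' deposited intensities, linear MAS5 signals per probe set (per the submitters' processing notes, with no version stated), already scaled to a trimmed mean of 99.98 on every array. Array medians were 14.8 to 17.6. The number of arrays, 3 per group, limits precision. Of 54675 probe sets, 62 controls were left out. Gene symbols came from the platform annotation, updated by gene identifier through RefSeq (GRCh38.p14); a probe set carrying more than 1 symbol was assigned to none.

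Signals were taken as log2(signal + 16). Probe sets whose mean reached the median (a signal of 15.2) were tested, 27307 in all, with limma 3.58.1 in R 4.3.3 (lmFit, eBayes with an intensity trend), group as the only term and Benjamini-Hochberg adjustment over all of them at 0.05. Scripts were tested on simulated data. Each gene is its brightest probe set. Members, lists and tests were chosen with earlier results of these data known. The rule for values per array took members called in either fit, the 6 largest differences, HMGCS1, INSIG1, SREBF1, SREBF2, FASN and SCD; of other lists, up to 4 members called with the block or the 2 of smallest p. EBP and ACAT2, and the members set out for the replicate 1 arrays, were named after their values were seen, as were POR, SCAP, RNF139, MBTPS2 and INSIG2.

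After subtracting each group mean, arrays sharing a number had correlations of 0.64 (replicate 1), 0.39 (replicate 2) and 0.25 (replicate 3), each over 0.1, so the replicate numbers of the titles were used as a block beside the fit without it. Differently numbered arrays 2 and 3 also correlated, with 0.32 and 0.20. With values centred by group, a replicate 1 shift shared by both groups by itself makes arrays 2 and 3 correlate across groups. The correlations of replicates 2 and 3 therefore cannot show that arrays pair by number. Alternatives were other pseudocounts, filters and normalizations, no intensity trend, replicate 1 as a batch factor, other probe set rules and arrays left out.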

Additional observations from a re-analysis of the deposited data

How the results depend on the processing

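The rise of SCD kept its sign under all alternatives run, and its side of the threshold turned with the model. It passed with the replicate block (log2 1.31, limma adjusted p = 0.00808) and with replicate 1 as a batch factor (1.31, adjusted p = 0.0262), so that 1 member was called in each, SCD. It ran from 0.68 to 2.16 with arrays or replicate numbers left out, and with these 0 to 2 members were called. The count of 2, SCD and STARD4, came from leaving out replicate 1 of both groups. Over all genes the limma count of 7 became 11 with quantile normalization (5 higher, 6 lower), 20 with centred array medians (6 higher, 14 lower), 4 without the intensity trend (3 higher, 1 lower), 19 with a gene's probe sets averaged (8 higher, 11 lower), 847 with the replicate block, 748 with the batch factor, 271 with the block and no filter, and 0 with the block and no trend (2043 at an unadjusted limma p under 0.05). It ran from 0 to 196 with arrays left out, and the settings with 0 had 489 to 907 at an unadjusted limma p under 0.05. Among uncalled members the sign was often not settled. With probe sets averaged the sign turned in HMGCS1 (0.087), IDI1 (-0.022), SQLE (-0.0099), DHCR7 (-0.0046), EBP (-0.030), SREBF2 (0.039) and LPIN1 (-0.098), and without _x_at probe sets in IDI1 (-0.011). With arrays left out, log2 values that crossed 0 ran over -0.0086 to 0.10 (ACLY), -0.043 to 0.27 (DHCR7), -0.022 to 0.22 (ELOVL6), -0.40 to 0.12 (FADS2), -0.062 to 0.31 (FDPS), -0.24 to 0.18 (HMGCS1), -0.15 to 0.38 (IDI1), -0.30 to 0.75 (INSIG1), -0.045 to 0.14 (LPIN1), -0.073 to 0.19 (LSS), -0.11 to 0.61 (MSMO1), -0.25 to 0.044 (MVK), -0.13 to 0.043 (NSDHL), -0.045 to 0.28 (PMVK), -0.077 to 0.11 (SC5D), -0.043 to 0.20 (SQLE), -0.038 to 0.22 (SREBF1), -0.21 to 0.054 (SREBF2), -0.58 to 0.17 (TM7SF2), and the median of the members over -0.0034 to 0.16. The count of 9 members lower on replicate 1 was 7 to 10 under 6 other settings, chosen after the data were seen. Over all genes the share called lower moved as well. It was 4.73% with no filter (9 members), 4.75% without the intensity trend (7 members) and 13.6% with quantile normalization (10 members). The causes were not tested. FADS2 and TM7SF2 gave no value with the filter at percentile 70. Precision without the block was limited: the 95% intervals were -1.09 to 1.32 for INSIG1 and -0.64 to 1.47 for STARD4.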
